A study of Mus musculus with 12 samples.

Results

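Myc, 3 early growth response factors (Egr1, Egr2 and Egr3), 4 Krüppel-like factors (Klf2, Klf4, Klf5 and Klf6), Ier2 and Maff were followed as a set of 10 injury-response genes, taken by name from a table of 46095 genes in inflamed mouse pancreas. All 10 were present and all 10 had enough counts to be tested, among 13743 genes tested in all. The 12 libraries were made at postnatal day 56. WT 1 to 6 are wild type (C57BL/6J), and AMKO 1 to 6 carry null alleles of Axl and Mertk (Axl-/-Mertk-/-), whose products are phagocyte receptors that recognise dying cells through GAS6 and protein S. Caerulein, a peptide that mimics cholecystokinin and injures acinar cells by overstimulation, was given to both genotypes intraperitoneally every hour for 10 doses of 100 µg/kg, with tissue taken 12 h after the first dose. No untreated pancreas was analysed here, so every value compares genotypes within pancreatitis at one time. The strain that carries the AMKO alleles is not stated, and a strain difference cannot be told apart from receptor loss.

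These genes belong to the transcriptional response that growth signals and tissue damage switch on within minutes to hours. Cholecystokinin and its analogues raise calcium and activate the ERK pathway in acinar cells, and ERK acts through serum response factor (SRF) and its ETS partners to induce EGR genes and Ier2. MYC pairs with MAX and drives genes of ribosome and nucleotide synthesis. The EGR and KLF proteins are zinc finger factors that bind GC-rich sites, and MAFF is a small MAF protein that pairs with CNC factors such as NRF2.

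Total counts ran from 10668637 to 15184371 per library. Axl held 545 to 1086 counts in the wild type libraries and 66 to 187 in the AMKO libraries, a log2 fold change of -2.69 (SE 0.18). Mertk held 33 to 170 and 55 to 144 counts (-0.03, SE 0.31, adjusted p = 0.969). Its count covers the whole gene, which an antisense gene overlaps, and does not check its disruption. Liver transcripts (Alb, Apob and 6 others) summed to 5.24 to 13.1 CPM (counts per 1e+06 counts after TMM scaling) in WT 1 to 3 and to 26.5 or more in the other 9 libraries, and WT 3, WT 6, AMKO 3 and AMKO 6 were the lowest in neutrophil markers (67.6 to 84.1 CPM summed over 8 genes, against 219 to 747 in the rest). Further fits set AMKO against WT 4 to 6 alone or WT 1 to 3 alone, or left those 4 libraries out.

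None of the 10 genes lay on chromosome 7 or 2, where Axl and Mertk are (GRCm38). Myc spans bases 61985391 to 61990374 of chromosome 15 and Maff bases 79346621 to 79359076 of the same chromosome, both on the plus strand. Klf4 spans 55527143 to 55532466 of chromosome 4 on the minus strand. Klf2 and Ier2 share chromosome 8, Egr3 and Klf5 chromosome 14, and Egr2, Klf6 and Egr1 lie on chromosomes 10, 13 and 18. None overlapped another annotated gene, and no other transcript matched one of them at 95% identity or more over 300 bp, so their counts are not shared with a near-identical copy.

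Promoter sequences from RefSeq (GRCm38.p6, 250 bases before to 50 after the start of transcription) were examined for Egr2, Klf2, Klf4, Klf6 and Maff. Those of Myc, Egr1, Egr3, Klf5 and Ier2 were not examined, and nothing is said here of their motifs. Those of Klf4 and Maff are shown because both genes differed between the genotypes, and one of Egr2 because it holds the binding motif of SRF. Of 3 Maff starts and 5 Egr2 starts, the second of Maff (the one with most matches) and the third of Egr2 are printed. Klf4 is at chr4:55532426-55532725 on the minus strand, Maff at chr15:79347270-79347569 and Egr2 at chr10:67537619-67537918, both on the plus strand. Each runs 5′ to 3′ along its gene, with matches to 8 motifs on either strand in capitals.
Klf4: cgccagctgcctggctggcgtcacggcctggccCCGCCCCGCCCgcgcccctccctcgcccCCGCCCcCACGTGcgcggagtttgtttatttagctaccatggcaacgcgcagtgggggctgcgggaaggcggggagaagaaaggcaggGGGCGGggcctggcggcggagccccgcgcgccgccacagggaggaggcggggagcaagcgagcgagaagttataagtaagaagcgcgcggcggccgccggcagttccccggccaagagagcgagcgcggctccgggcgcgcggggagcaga
Maff: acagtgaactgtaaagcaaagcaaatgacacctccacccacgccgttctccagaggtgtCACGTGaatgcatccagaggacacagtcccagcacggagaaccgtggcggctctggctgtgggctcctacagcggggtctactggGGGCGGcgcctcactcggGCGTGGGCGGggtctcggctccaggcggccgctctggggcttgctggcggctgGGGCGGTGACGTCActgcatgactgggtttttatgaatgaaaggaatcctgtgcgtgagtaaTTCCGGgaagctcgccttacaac
Egr2: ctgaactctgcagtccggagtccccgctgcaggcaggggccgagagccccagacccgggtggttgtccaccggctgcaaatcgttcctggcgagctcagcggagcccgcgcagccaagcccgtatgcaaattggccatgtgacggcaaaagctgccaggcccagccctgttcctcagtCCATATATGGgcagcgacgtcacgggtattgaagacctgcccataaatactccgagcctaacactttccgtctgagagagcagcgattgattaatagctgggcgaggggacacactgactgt
The motifs searched were TATAAA, TGACGTCA (cyclic AMP response element), TGANTCA (AP-1), CACGTG (E-box, bound by MYC and MAX among others), GGGCGG (GC box), GCGTGGGCG (EGR), CCGGAA (ETS) and the CArG box of SRF. The Klf4 window held CACGTG 182 bases before the start, a sequence present in 7.15% of 32851 promoters, and 4 GC boxes, which 35.7% of promoters held at least once. The Maff window held TGACGTCA 29 bases before the start (1.79% of promoters), GCGTGGGCG 88 bases before it (0.612%), CACGTG 191 bases before it and 3 GC boxes, 1 of which overlaps GCGTGGGCG, with CCGGAA after the start (14.9%). In the printed Egr2 window the only match was a CArG box 72 bases before the start (1.63% of promoters). The first Maff start held no match to the 8 motifs, and the third held 1 GC box. The printed Maff and Egr2 windows were chosen by their matches. The shares of promoters therefore cannot show whether these genes hold the motifs more often than others. CACGTG was not particular to Klf4 and Maff. The Klf6 window held it 43 bases before the start, with 1 GC box, and the first Egr2 start held it 27 bases before. The Klf2 window held 2 GC boxes and no other match. A match describes letters in the window and not a bound site.

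Myc was higher in every AMKO library than in any wild type library. Its level in wild type had a lowest value of 21.4 CPM, a median of 27.0 and a highest of 30.2, and in AMKO 36.4, 44.9 and 49.4. These levels rest on 262 to 490 counts per wild type library and 442 to 716 per AMKO library. The means were 26.2 ± 4.15 and 44.3 ± 4.58 CPM (SD, n = 6 each), a 1.69-fold difference (log2 fold change 0.76, SE 0.11, adjusted p = 0.00111 by edgeR's quasi-likelihood test over all genes). By p-value Myc stood at rank 50 of the 13743 genes. Only 1.24% of the genes tested had all AMKO libraries above all wild type libraries. It was called in all 22 alternative fits, with log2 fold changes of 0.56 to 0.83 and adjusted p up to 0.0395. The smallest difference and the largest p both came from the fit without WT 3, WT 6, AMKO 3 and AMKO 6. Those libraries held the extremes of Myc, 21.4 and 21.5 CPM in WT 3 and WT 6 against 49.4 and 47.8 CPM in AMKO 3 and AMKO 6. Neutrophil markers were lowest in the same 4 libraries, and the part of leukocyte content in the size of the difference was not tested. In whole tissue, fewer cells of a type and less RNA per cell cannot be told apart.

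In the set as a whole, 3 of 10 genes were called, all higher in AMKO, where 6.06% of all genes tested were called, 2.55% higher and 3.51% lower. These were Myc, Maff and Klf4. Fitted values were above 0 for 7 of the 10, with a median log2 fold change of 0.24, against 49.7% of all genes and a median of -0.002. Without WT 3, WT 6, AMKO 3 and AMKO 6, fitted values were above 0 for 6 of the 10, with a median of 0.05.

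**Figure D1:**
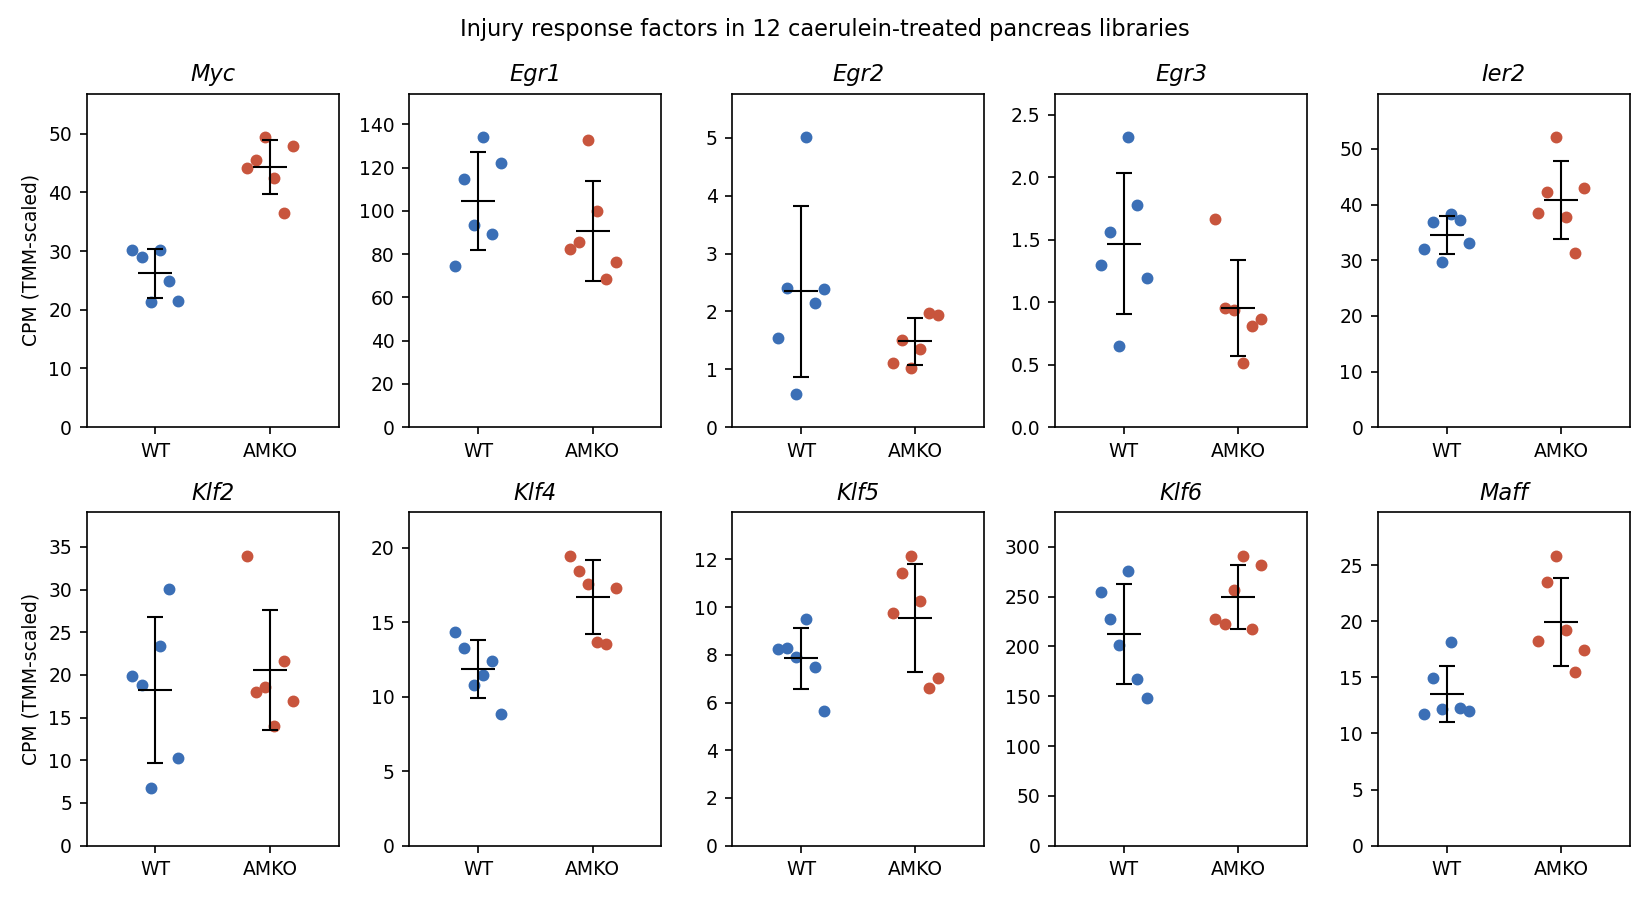
CPM scaled by TMM of each gene in each of the 12 libraries, wild type in blue and AMKO in red, with the mean and SD of 6 libraries in black; each panel has its own axis from 0. Myc is the gene whose groups do not overlap (at most 30.2 CPM in wild type, at least 36.4 in AMKO), while Klf2 has the highest AMKO library at 34.0 CPM and the lowest wild type library at 6.77.

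Klf4, a reprogramming factor that also acts in epithelial differentiation and in monocytes, ran from 8.84 to 14.4 CPM in wild type (median 11.9) and from 13.6 to 19.5 CPM in AMKO (median 17.4). The groups overlapped only through WT 1, which lay above AMKO 4 and AMKO 5. Means were 11.8 ± 1.95 and 16.7 ± 2.49 CPM (SD, n = 6 each), a 1.41-fold difference (log2 fold change 0.49, SE 0.13, adjusted p = 0.0391). Maff, the small MAF protein, ran from 11.7 to 18.1 CPM in wild type (median 12.2) and from 15.5 to 25.9 CPM in AMKO (median 18.7). Here WT 4 alone reached into the AMKO range, above AMKO 5 and AMKO 6. Its means were 13.5 ± 2.54 and 19.9 ± 3.94 CPM (SD, n = 6 each), a 1.48-fold difference (log2 fold change 0.56, SE 0.14, adjusted p = 0.0336). Both calls lay close to the threshold and depended on which libraries were included. When single libraries were left out, Klf4 passed in 4 of 12 fits, those without WT 1, WT 2, AMKO 4 or AMKO 5, and had adjusted p up to 0.0914 in the rest. Maff passed in 5 of 12, those without WT 2, WT 4, AMKO 1, AMKO 5 or AMKO 6, with adjusted p up to 0.0875. Neither passed against WT 4 to 6 (0.085 and 0.216), against WT 1 to 3 (0.255 and 0.098), without the 4 libraries low in neutrophil markers (0.362 and 0.31) or with total-count scaling (0.155 and 0.0766). Of all genes, 1.36%, 1.74% and 0.913% were called in the first 3 of these comparisons, where Myc was the only one of the 10 called. The log2 fold changes of Klf4 and Maff were above 0 in all 22 alternatives, from 0.34 to 0.63 and from 0.42 to 0.66.

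The 3 EGR genes had fitted values below 0 and none passed the test, also at an unadjusted p of 0.05 and by DESeq2. EGR1 is the EGR factor most widely induced by growth factors and stress. Its gene ran from 74.4 to 134 CPM in wild type (median 104) and from 68.4 to 133 CPM in AMKO (median 83.9), so the ranges were nearly the same (log2 fold change -0.20, SE 0.17, adjusted p = 0.531). AMKO 3 held the 133 CPM and WT 4 the 134 CPM. Egr2, which acts in Schwann cells and in macrophage and lymphocyte activation, was low, with 7 to 67 counts per wild type library and 12 to 27 per AMKO library. It ran from 0.571 to 5.02 CPM (median 2.27) and from 1.02 to 1.98 CPM (median 1.43). WT 4 held the highest and WT 3 the lowest value of the 12, and 4 wild type libraries lay above every AMKO library (log2 fold change -0.66, SE 0.38, adjusted p = 0.335). Against WT 4 to 6 the value was -1.09 and against WT 1 to 3 it was -0.04, with adjusted p = 0.147 and 0.983. It also moved with single libraries, from -0.862 without WT 3 to -0.293 without WT 4. Egr3 had 8 to 31 and 6 to 27 counts per library and ran from 0.652 to 2.32 CPM (median 1.43) in wild type and from 0.509 to 1.67 CPM (median 0.90) in AMKO. The groups overlapped, with 5 of 6 wild type libraries above the AMKO median (log2 fold change -0.59, SE 0.33, adjusted p = 0.321). The SEs of Egr2 and Egr3, 0.38 and 0.33, compare with 0.11 for Myc.

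Klf6, a KLF factor induced by tissue injury, was the most abundant of the 10 in both genotypes. It ran from 148 to 276 CPM in wild type (median 214) and from 218 to 291 CPM in AMKO (median 242). WT 5 and WT 6 were the lowest and WT 3 the next, all below every AMKO library, but WT 1, WT 2 and WT 4 lay within the AMKO range (log2 fold change 0.23, SE 0.14, adjusted p = 0.365). Klf5, a factor of proliferating epithelium, ran from 5.65 to 9.51 CPM (median 8.08) and from 6.60 to 12.2 CPM (median 10.01). AMKO 1 to 4 lay above all wild type libraries, while AMKO 5 and AMKO 6 lay within their range (log2 fold change 0.28, SE 0.17, adjusted p = 0.355). Ier2, an immediate-early gene that encodes a nuclear protein, ran from 29.6 to 38.3 CPM (median 35.0) and from 31.2 to 52.1 CPM (median 40.3). Of the AMKO libraries 4 lay above every wild type library, AMKO 4 and AMKO 5 excepted (log2 fold change 0.24, SE 0.11, adjusted p = 0.215, unadjusted p = 0.0438).

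Klf2, best known as the flow-induced factor of endothelium and as a quiescence factor of lymphocytes, varied most among the genes above 5 CPM. It ran from 6.77 to 30.1 CPM in wild type (median 19.4) and from 14.0 to 34.0 CPM in AMKO (median 18.3). The coefficient of variation was 47.0% in wild type and 34.3% in AMKO, against 15.8% and 10.3% for Myc. The genotypes overlapped (log2 fold change 0.18, SE 0.33, adjusted p = 0.797), and the value was below 0 without AMKO 1 (-0.008), against WT 4 to 6 (-0.019) and without the 4 libraries low in neutrophil markers (-0.063). AMKO 1 had the highest Klf2 of the 12 libraries and WT 3 the lowest. The same 2 libraries were the highest and the lowest for the 6 B and plasma cell markers, at 208 and 0.897 CPM in sum. The 8 endothelial markers summed to 147 to 213 CPM in wild type and 114 to 180 in AMKO, with WT 3 at 208 and AMKO 1 at 159. The part of either cell type in the Klf2 values was not tested.

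**Figure D2:**
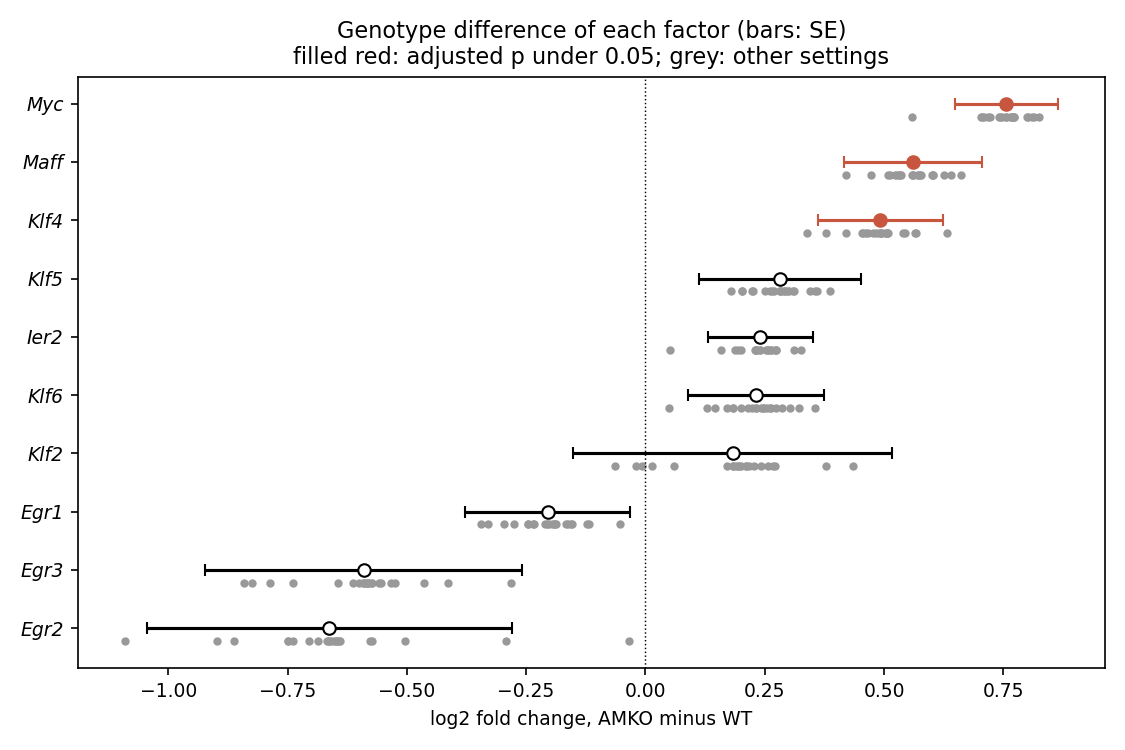
Log2 fold change of each gene, AMKO minus wild type, with its SE as a bar; filled red points have an adjusted p under 0.05, and grey points are the 22 alternative fits. All grey points of Myc lie between 0.56 and 0.83, whereas those of Klf2 fall on both sides of 0.

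Levels were compared between genes only per kilobase of exon (CPM per kb, exons of all GENCODE vM21 transcripts joined). In wild type Klf6 stood first at 48.4 ± 11.3 CPM per kb, above Egr1 (23.4 ± 5.06) and Ier2 (22.7 ± 2.27), whose ranges overlapped. Klf2 (9.85 ± 4.63) and Myc (9.64 ± 1.53) came next and overlapped each other, then Maff (5.21 ± 0.979) and Klf4 (3.89 ± 0.641), which overlapped too. Klf5 (1.51 ± 0.245), Egr2 (0.691 ± 0.436) and Egr3 (0.333 ± 0.128) were last, and each overlapped its neighbour. In AMKO, Ier2 (26.8 ± 4.56) stood above Egr1 (20.3 ± 5.16) and Myc (16.3 ± 1.69) above Klf2 (11.1 ± 3.81), in both cases with overlapping ranges. The remaining 6 genes kept their places. All values are mean ± SD over 6 libraries.

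Libraries differed in ways that many, but not all, of the 10 genes shared. Within wild type, WT 4 held the highest value for 7 of the 10 genes, and WT 3 or WT 6 the lowest for 8. Within AMKO, AMKO 3 was highest for 5 genes and AMKO 5 lowest for 7, namely Myc, Egr1, Klf4, Klf5, Klf6, Ier2 and Maff. Egr2 went the other way within AMKO, highest in AMKO 5 and lowest in AMKO 3. AMKO 5 also had the highest sum of 8 macrophage markers (644 CPM; 146 to 345 in wild type and 237 to 644 in AMKO), and WT 3 the lowest. In each of the 10 marker lists the sums of the 2 genotypes overlapped. Acinar markers, for example, summed to 175918 to 266748 CPM in wild type and 156132 to 296935 in AMKO, with Prss2 listed at 0 in every library. Single markers did differ, with 2 of 9 acinar genes tested called higher, Ptf1a and Bhlha15, and 1 macrophage gene, Mrc1. Muc1 of 6 duct, Kdr of 7 endothelial and Pdgfrb of 7 fibroblast genes were called lower. In all, 6 of the 63 markers tested were called (9.52%, where 6.06% of all genes were). None of 8 neutrophil, 6 B and plasma cell, 5 islet or 7 liver genes tested was called, and no T cell gene had enough counts to be tested. What these shifts contribute to the 10 genes was not tested.

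**Figure D3:**
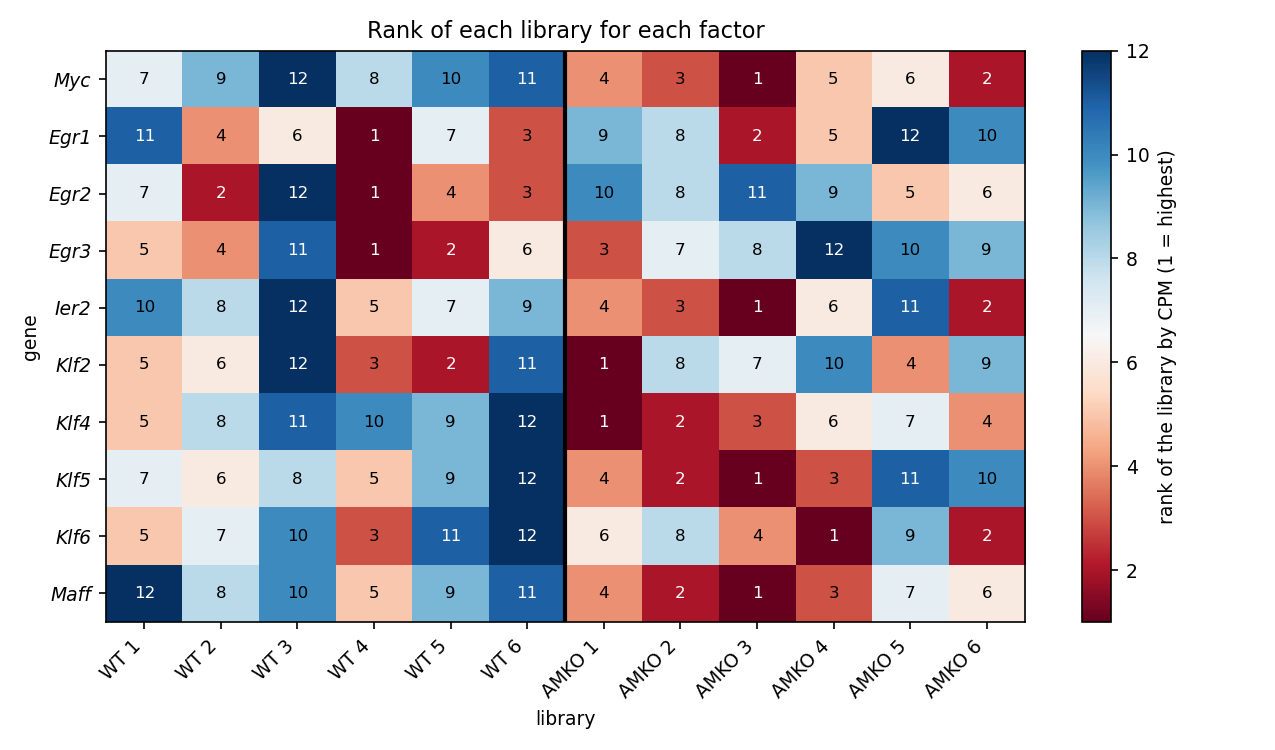
Rank of each of the 12 libraries by CPM for each gene, from 1 (highest, red) to 12 (lowest, blue), with a line between wild type and AMKO. For Myc the 6 AMKO libraries take ranks 1 to 6, and WT 3 holds rank 12 for Myc, Egr2, Ier2 and Klf2.

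For each of the 10, the tested genes with the most similar course across the 12 libraries, after centring log2 CPM within each genotype, were listed among 11286 genes. The similarity is the highest of many, is a description over 12 libraries that share depth and tissue content, and was not tested. Closest to Myc were Cdkn2aip, Syde2 and the immediate-early nuclear receptor Nr4a1, with a correlation of 0.90 to 0.912. Klf2 was closest to Ccr7, the chemokine receptor of lymphocytes and mature dendritic cells, to Peli1 and to Cebpb (0.935 to 0.94). Klf4 was closest to Slc12a4, the keratin Krt80 and the prion protein gene Prnp (0.88 to 0.918). Ier2 was closest to Uap1l1, the AP-1 subunit Jund and Rassf1 (0.869 to 0.923). Maff was closest to Myl12a, Sorbs2 and Rps27a (0.882 to 0.909), and Egr1 to Sorbs2, Dctn6 and Bdkrb2 (0.872 to 0.892). Klf5 was closest to Ercc8, Fzd5 and Chka, Klf6 to Tdrd7, Tlk1 and Rbm34, Egr2 to Serhl, Lsm3 and Vps29, and Egr3 to Fam20a, Pmp22 and Cd5l.

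MYC target genes, mostly of ribosome and nucleotide synthesis, were higher in AMKO for 9 of 34 genes tested (26.5%), where 2.55% of all genes were called higher. None was lower, also at an unadjusted p of 0.05 and by DESeq2. The list also holds genes of other functions, such as polyamine synthesis, the cell cycle and iron uptake. In this list 32 of 34 fitted values were above 0, with a median log2 fold change of 0.23 against -0.002 over all genes. Srm, spermidine synthase, stood at 25.8 ± 3.76 CPM in wild type and 39.9 ± 6.46 in AMKO (log2 difference 0.63, SE 0.12, adjusted p = 0.00776). Ppan, a factor of large ribosomal subunit assembly, stood at 21.8 ± 2.86 and 31.2 ± 4.48 CPM (0.52, SE 0.11, adjusted p = 0.0127). Wdr43, a small subunit processome component, stood at 53.4 ± 4.08 and 67.2 ± 4.41 CPM (0.33, SE 0.07, adjusted p = 0.0135), with no overlap between the groups. The other 6 called were Gnl3, Mthfd2, Nop56, Bop1, Rrp12 and Tcof1, at log2 fold changes of 0.29 to 0.48. The number of calls was 3 without AMKO 3, 4 without AMKO 2 and 5 without WT 4. It was 2 against WT 4 to 6 (1.36% of all genes called), 1 against WT 1 to 3 (1.74%), and 0 without the 4 libraries low in neutrophil markers (0.913%), where 32 of 34 fitted values were still above 0 and the median was 0.25.

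In the MYC network itself, 1 of 12 genes tested passed (8.33%), a share near the 6.06% of all genes, so the count is no result about the list. This was Max, the obligate partner of MYC, at 44.1 ± 2.39 CPM in wild type and 53.8 ± 3.88 in AMKO with no overlap (log2 fold change 0.29, SE 0.07, adjusted p = 0.0235). Max no longer passed when WT 3, WT 6, AMKO 2, AMKO 3 or AMKO 4 was left out (adjusted p at most 0.0641), nor against WT 4 to 6 (0.189), against WT 1 to 3 (0.105) or with total-count scaling (0.192). The list's median was -0.01.

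Other immediate-early genes moved in both directions, with 5 of 31 tested higher and 4 lower (29.0% called), where 2.55% of all genes were called higher and 3.51% lower. Fosl1, an AP-1 subunit, stood at 11.1 ± 2.86 CPM in wild type and 27.3 ± 9.77 in AMKO (log2 difference 1.30, SE 0.23, adjusted p = 0.00605), and Jund at 108 ± 7.78 and 188 ± 39.5 CPM (0.80, SE 0.12, adjusted p = 0.00155). Nr4a2, an orphan nuclear receptor, was higher too (0.72, SE 0.15, adjusted p = 0.00938), as were Gadd45b and Atf3. Lower in AMKO were Rhob, a stress-induced small GTPase, at 129 ± 20.8 and 62.6 ± 4.39 CPM (-1.04, SE 0.10, adjusted p = 3.48e-05), Gadd45g (-1.34, SE 0.18, adjusted p = 0.000641), Ctgf, the connective tissue growth factor gene (-1.36, SE 0.25, adjusted p = 0.00816), and Plk2. Of the 31 tested, the groups did not overlap for 8 (5 with AMKO above and 3 below), where 3.54% of all genes tested did not overlap. Against WT 4 to 6 there were 4 calls among 32 tested (1.36% of all genes called), and against WT 1 to 3 there were 6 among 32 (1.74%). Without the 4 libraries low in neutrophil markers there were 2 among 32 (0.913%), both lower. Of the 6 genes given with values here, Rhob and Gadd45g passed in each of these subsets. Fosl1 missed the threshold against WT 1 to 3 (0.105), and Jund and Nr4a2 against WT 4 to 6 (0.0527 and 0.131). Without the 4 libraries Fosl1 (0.0682), Jund (0.0513), Nr4a2 (0.199) and Ctgf (0.089) missed it.

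Among ERK feedback and SRF regulators, 2 of 18 genes tested were higher and 1 lower (16.7% called, where 6.06% of all genes were). Srf, the factor that binds CArG boxes such as that printed above for Egr2, stood at 46.6 ± 6.62 CPM in wild type and 69.2 ± 16.6 in AMKO (log2 difference 0.57, SE 0.15, adjusted p = 0.0372). Dusp5, a nuclear ERK phosphatase, was higher (0.67, SE 0.18, adjusted p = 0.0398) and Elk3, an ETS partner of SRF, lower (-0.44, SE 0.13, adjusted p = 0.0491). None of the 3 passed against WT 4 to 6 or WT 1 to 3 (adjusted p = 0.0913 to 0.257), and each was lost in 7 or 9 of the 12 fits without 1 library. For Dusp6, a cytoplasmic ERK phosphatase, the value was -0.12 (SE 0.19, adjusted p = 0.749). Nab1 and Nab2, corepressors that bind EGR proteins and of which Nab2 is itself an EGR target, stood at 0.06 (SE 0.08, adjusted p = 0.711) and 0.41 (SE 0.17, adjusted p = 0.166).

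Of 14 other KLF and SP factors tested, none was called by edgeR or DESeq2, and the median was 0.02. At an unadjusted p under 0.05, 2 were higher and 1 lower. This share is near the 21.7% of all genes and no result about the list. Among 10 MAF and CNC partners, 1 was called, a share near the 6.06% of all genes and no result about the list. This was Nfe2l2, which encodes NRF2, the oxidative stress regulator and a partner of small MAF proteins, at 71.2 ± 9.27 CPM in wild type and 54.0 ± 5.20 in AMKO (log2 difference -0.40, SE 0.09, adjusted p = 0.0214). The call was lost without AMKO 3 (0.0577), against WT 1 to 3 (0.171), without the 4 libraries (0.0882) and with total-count scaling (0.0644).

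**Figure D4:**
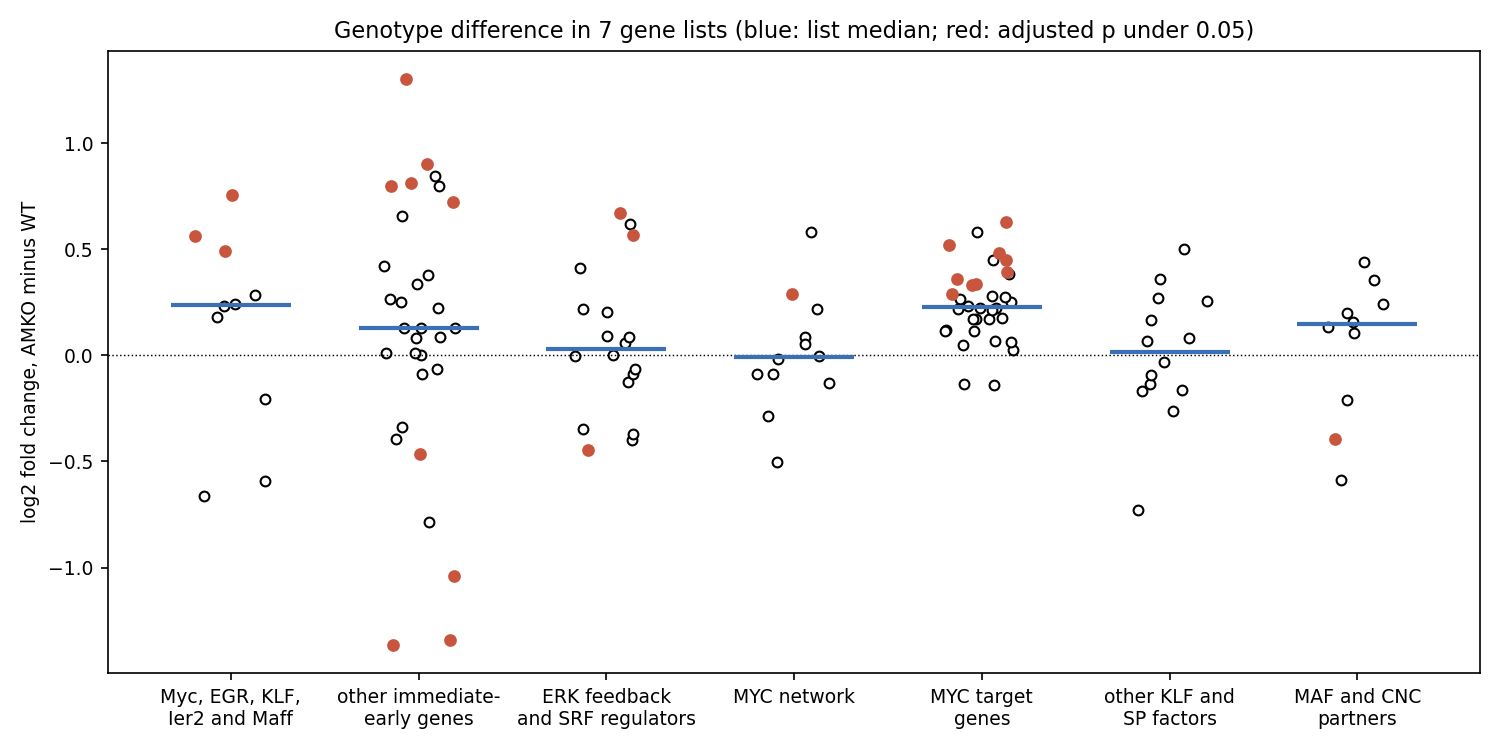
Log2 fold change, AMKO minus wild type, of every tested gene in the set of 10 and in 6 related lists; red points have an adjusted p under 0.05 and blue lines are list medians. MYC target genes lie above 0 for 32 of 34, whereas other immediate-early genes spread from -1.36 to 1.30.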

How the data were processed

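RNA was sequenced from 12 caerulein-treated pancreas samples, 6 per genotype, grouped by their titles. The deposited table holds raw counts, 1 row per gene. The submitters' processing notes name HISAT2 2.0.4 and mm10. No counter, annotation or strand setting is named, so reads of overlapping antisense genes may not be separated. Of 46095 genes, 19888 had 0 counts in every library.

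The genotypes were compared by edgeR's robust quasi-likelihood F test (version 4.0.16, R 4.3.3), fitting genotype alone to the 13743 genes that passed filterByExpr. Libraries were scaled by TMM, p-values were adjusted by Benjamini-Hochberg over those genes, and a call means an adjusted p under 0.05. The procedure was tested on simulated counts. CPM are counts per 1e+06 of the TMM-scaled library total. The labels do not tie samples to mice, so p-values may measure only the spread between samples. Genes were placed with GENCODE vM21 (GRCm38), and copies sought with BLAST 2.17.0.

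The 10 genes, the 6 pathway lists and the 10 marker lists were chosen with earlier results of these data known. Named genes were the 10, Axl and Mertk, all called members of a list (the 3 smallest p in each direction where over 6 were called, the others by name only), Nab1, Nab2, Max, Srf and Dusp6, and the 3 genes most similar to each of the 10 (mean log2 CPM of at least 1, log2 CPM with a prior count of 2). Alternatives were other scalings, filters, DESeq2 1.42.0, the replicate number as a block, subsets of libraries, and leaving out each library. The fit without the robust option, and alternatives for the list counts, were added after seeing the data.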

Additional observations from a re-analysis of the deposited data

Results flagged for a closer look

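Single libraries stood apart for 3 of the named genes, in 3 of 58 groups examined, where chance flags about 1 in 20. Rhob was 71.2 CPM in AMKO 3, against 58.6 to 62.4 CPM in the other AMKO libraries, and without AMKO 3 its log2 fold change was -1.08 (SE 0.105, adjusted p = 8.35e-05). Ctgf was 51.7 CPM in WT 4, against 17.0 to 24.2 CPM in the other wild type libraries, and without WT 4 its log2 fold change was -1.04 (SE 0.13, adjusted p = 0.00109). Nfe2l2 was 63.9 CPM in AMKO 5, against 49.4 to 54.1 CPM in the other AMKO libraries, and without AMKO 5 its log2 fold change was -0.43 (SE 0.09, adjusted p = 0.00857). No library of the 10 injury-response genes stood apart from its group in this way.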

How the results depend on the processing

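Myc was called in all 22 alternatives, and Egr1, Egr2, Egr3, Klf2, Klf5, Klf6 and Ier2 in none. The number of all genes called was 833, and 449 with total-count scaling, 1259 by DESeq2, 193 against WT 4 to 6, 249 against WT 1 to 3 and 127 without WT 3, WT 6, AMKO 3 and AMKO 6. Leaving out 1 library gave 402 (without AMKO 3) to 1171 (without AMKO 5), with 441 without AMKO 2, 524 without WT 4 and 545 without WT 6. Of the 10 genes, 3 were called, and 1 (Myc) under total-count scaling and with each of the 3 subsets of libraries; leaving out 1 library gave 1 to 3, with 1 without WT 3, WT 5, WT 6, AMKO 2 or AMKO 3. Of MYC target genes, 4 were called with total-count scaling, 2 against WT 4 to 6, 1 against WT 1 to 3 and 0 without the 4 libraries, and 3 to 12 without 1 library. Of other immediate-early genes, 4 were called against WT 4 to 6 and 2 without the 4 libraries, and 8 to 11 without 1 library. Subsets have fewer samples; the cause of the other changes was not tested. The log2 fold change of Klf2 ran from -0.008 (without AMKO 1) to 0.379 when 1 library was left out, and turned to -0.019 against WT 4 to 6 and to -0.063 without the 4 libraries. That of Mertk, -0.03, ran from -0.194 to 0.144 when 1 library was left out and was 0.112 against WT 4 to 6. Total-count scaling moved the share of higher calls from 351 of 833 to 162 of 449, and DESeq2, which was run on 26207 genes without the count filter, to 625 of 1259 (613 higher and 621 lower among the 13743 genes), with the median of all genes at -0.039 and 0.026.

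A fit that took replicate numbers as a block called 976 genes, 3 of the 10, 12 MYC target genes and 11 other immediate-early genes, with Myc at 0.76 (adjusted p = 0.00273) and Mertk at 0.012. The main fit was planned with genotype alone and did not take the numbers as pairs. Libraries with equal numbers correlated at -0.16 to 0.346. Of the wild type libraries, 2 of 6 were closest to the AMKO library of their number. WT 1, WT 2, WT 4 and WT 5 were all closest to AMKO 1, so these correlations cannot decide whether the numbers mark pairs. Egr2 and Egr3 rest on 6 to 67 counts per library; the part of depth in their SEs was not tested.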
